A study of Mus musculus with 10 samples.

Results

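The mitochondrial respiratory chain is built mostly from proteins encoded in the nucleus. Their transcripts were described here complex by complex in cells of the mouse ovarian follicle. Members were all gene symbols of the deposited expression table that begin with Nduf followed by a, b, c, s or v and a number (complex I), the symbols Sdha to Sdhd (complex II), those beginning with Uqcr (complex III), Cox5 to Cox8 subunit symbols (complex IV) and those beginning with Atp5 (ATP synthase). This gave 80 genes of 23234 in the table: 36 of complex I, 4 of complex II, 8 of complex III, 15 of complex IV and 17 of ATP synthase. Values are FPKM, fragments scaled by transcript length and by library size. Levels of different genes are set beside each other on this scale, but those of short genes or genes with near-identical copies are less certain.

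The study profiled cumulus cells, the granulosa cells around the oocyte, mural granulosa cells, which form the lining of the follicle, and whole cumulus-oocyte complexes (COC). All cumulus and mural donors were C57BL/6 mice: 3 cumulus libraries are of mice aged 2 months, 3 of mice aged 10 months, and 2 mural libraries of mice aged 2 months. The COC libraries, from PMSG-primed mice (a gonadotropin, also called eCG) aged 3 weeks, are 1 of strain DBA/2 and 1 of BDF1, a hybrid of C57BL/6 and DBA/2. The protocols describe handling of all samples in a medium containing the phosphodiesterase inhibitor milrinone, and mural cells as taken from eCG-primed mice. No source used here says whether the cumulus donors were primed, so cell type and priming cannot be told apart. The labels also leave unsaid whether replicates are separate animals, and p-values then measure only how much these libraries vary, which may be technical.

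FPKM summed to between 470377 and 603460 per library, and 11373 to 12637 genes reached an FPKM of 1. No read depth is known. All 7 granulosa markers checked (Foxl2, Fshr, Inha, Amh, Cyp19a1, Nr5a2 and Esr2) were at or above an FPKM of 1 in all 10 libraries. Summed FPKM of 11 oocyte markers was 3358 and 3198 in the COC, but also 1205 in cumulus replicate 3 at 2 months, against 232 in replicate 1 and 4.43 in replicate 2. It was 171 to 376 at 10 months, and 158 and 21.8 in mural replicates 1 and 2. Summed FPKM of 5 mural markers was 950 in cumulus replicate 3 of the 10-month group, against 50.1 and 315 in replicates 1 and 2.

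Complex I takes electrons from NADH and complex II from succinate. Complex III passes them to cytochrome c, complex IV hands them to oxygen, and ATP synthase uses the proton gradient that complexes I, III and IV build. Each complex joins a few catalytic subunits with many accessory ones, and several complex IV subunits exist as isoforms made in different tissues. Cox6a2, Cox7a1 and Cox8b are known as heart and skeletal muscle forms, and Cox6b2, Cox7b2 and Cox8c as testis forms. Cumulus cells are known to supply the oocyte with pyruvate made by glycolysis, which the oocyte oxidises in its own mitochondria.

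Promoter sequences are shown for 3 of the isoform pairs whose widely made and tissue-restricted forms stood far apart in level. Each is the 150 bases before the transcription start, 5′ to 3′, from RefSeq on GRCm38.p6, with CpG dinucleotides in capitals. In each pair the first gene is the widely made form.
Cox7a2 (chr9:79759854-79760003, minus strand): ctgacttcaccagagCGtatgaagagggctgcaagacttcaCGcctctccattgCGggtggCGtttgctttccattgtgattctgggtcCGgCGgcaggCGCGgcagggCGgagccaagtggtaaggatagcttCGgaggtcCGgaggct
Cox7a1 (chr7:30184021-30184170, plus strand): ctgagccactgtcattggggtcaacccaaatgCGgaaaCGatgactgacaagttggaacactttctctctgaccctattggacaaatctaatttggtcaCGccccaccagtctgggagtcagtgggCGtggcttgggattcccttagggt
Cox6b1 (chr7:30626115-30626264, minus strand): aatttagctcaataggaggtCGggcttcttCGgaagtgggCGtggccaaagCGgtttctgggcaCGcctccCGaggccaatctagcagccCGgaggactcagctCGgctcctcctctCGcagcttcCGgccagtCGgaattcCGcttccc
Cox6b2 (chr7:4753095-4753244, minus strand): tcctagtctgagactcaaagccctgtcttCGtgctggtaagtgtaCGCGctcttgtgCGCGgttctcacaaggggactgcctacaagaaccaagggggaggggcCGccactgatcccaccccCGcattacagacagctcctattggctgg
Cox8a (chr19:7217617-7217766, minus strand): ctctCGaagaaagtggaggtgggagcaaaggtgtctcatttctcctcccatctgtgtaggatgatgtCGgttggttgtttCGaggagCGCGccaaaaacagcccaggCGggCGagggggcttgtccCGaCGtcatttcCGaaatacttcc
Cox8b (chr7:140900447-140900596, minus strand): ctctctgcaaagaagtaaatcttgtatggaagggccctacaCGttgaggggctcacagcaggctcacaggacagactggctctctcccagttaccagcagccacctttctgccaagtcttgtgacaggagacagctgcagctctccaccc

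The 150 bases held 11 CpG for Cox7a2 and 4 for Cox7a1, 12 for Cox6b1 and 7 for Cox6b2, and 10 for Cox8a and 1 for Cox8b. In the RefSeq window of 300 bases (250 before to 50 after the start), the median was 19 CpG over the 68 members with a promoter entry and 8 over all 27025 genes. Cox6a1 had 32. The printed pairs held 20 and 7, 17 and 10, and 19 and 2 in this window, in the order shown. Cox7b and Cox7b2, which also stood far apart in level but are not printed, went the other way. The widely made Cox7b had only 5 and Cox7b2 had 10. Motifs named for regulators of respiratory genes were searched on both strands of these windows. GCATGCGC, from the NRF1 site, was found in 10 members, among them Atp5g2, Cox6a1, Sdhb and Uqcrc1, which is 14.7% of 68, against 3.05% of all genes. CCGGAAGT, from the GABP site, was found in 5 (Atp5h, Cox8a, Ndufs3, Uqcr11 and Uqcrh; 7.4% against 4.31%). AAGATGGC, from the YY1 site, was found in 11, among them Atp5f1, Atp5j and Ndufs4 (16.2% against 3.19%). TATAAA was found in 7 members (10.3% against 15.67%), among them Cox7b2 and Cox8b. Matches of different motifs overlapped in 0 members. A match is a description of letters, not a bound site.

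Subunit transcripts were abundant in every library. An FPKM of at least 20 was reached in all 10 libraries by 71 of the 80 members, against 21.93% of the 12412 genes tested. The median of the members' mean FPKM over the 8 C57BL/6 libraries was 136 for the 76 members tested and 11.97 for all genes tested. Levels within a complex were far from equal, though the ranks of short genes are less certain. In complex I, Ndufa3, a small accessory subunit, had the highest mean (301 FPKM) and Ndufa11 the lowest (18.1). Ndufs1, which carries iron-sulfur clusters in the electron path, stood at 43.8, while the core subunits Ndufs3 (109.8), Ndufs7 (93.0), Ndufs8 (77.8), Ndufv1 (76.1) and Ndufv2 (53.8) stood higher. Complex II was more even: its highest member, the iron-sulfur subunit Sdhb, had a mean of 109 and its lowest, the membrane anchor Sdhd, 74.2.

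In complex III the highest was Uqcrq (353 FPKM), a small accessory subunit, and the lowest Uqcrfs1 (75.0), the Rieske iron-sulfur protein. In complex IV Cox6a1 was highest (649). ATP synthase had the highest member of all, Atp5g3 (887), a gene for the membrane ring subunit c, followed by Atp5b (802), the catalytic subunit beta. Atp5s (5.26) and Atp5sl (9.19) were the lowest ATP synthase symbols. Both carry the Atp5 name without encoding a structural subunit of the enzyme. Ndufa4 is likewise named for complex I, although its protein is now counted with complex IV; it had a mean of 229 FPKM.

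**Figure D1:**
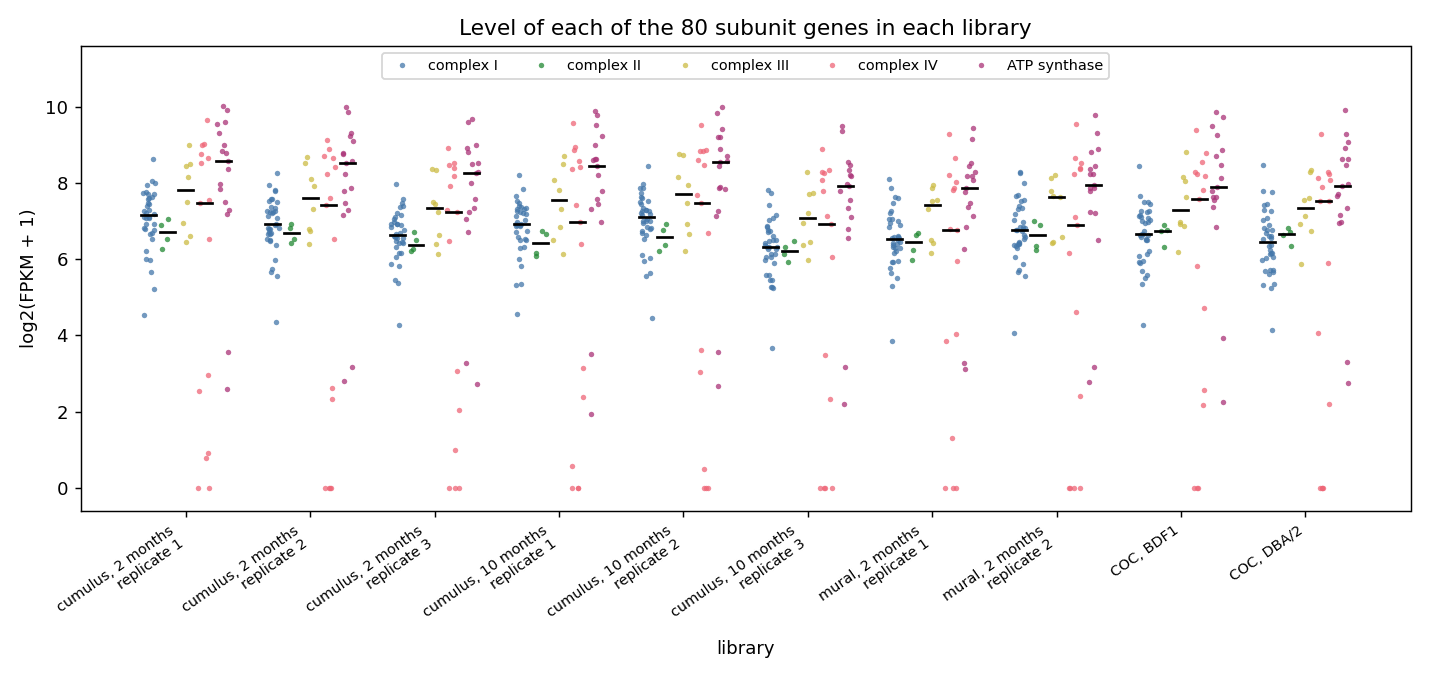
Level of each of the 80 genes (points, log2(FPKM + 1)) in each library, coloured by complex, with a bar at each complex's median. ATP synthase has the highest median in each library, and the complex IV points at or near 0 are tissue-restricted isoforms.

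Of the tissue-restricted isoforms, 4 were at or near 0. Cox7b2 and Cox8b were listed at 0 in all 10 libraries, and Cox8c at 0.73 FPKM in cumulus replicate 1 at 2 months and at 0 in the other 9. Cox6a2 reached 0.87, 0 and 3.15 FPKM in the 2-month cumulus libraries, 0.50, 0.40 and 0 in the 10-month ones, 1.47 and 0 in the mural libraries, and 3.51 and 3.58 in BDF1 and DBA/2 COC. These 4 genes did not reach a mean FPKM of 1 over the 8 C57BL/6 libraries and were not tested, which left 76 members. Their partners stood at 236 FPKM or more for Cox8a, at 479 or more for Cox6a1 and at 55.1 or more for Cox7b in every library. Subunit c comes from Atp5g1, Atp5g2 and Atp5g3, whose mature proteins are identical and whose import sequences differ. Atp5g3 held 56.7 to 63.5% of their summed FPKM in the 6 cumulus libraries and 64.5 and 69.2% in the mural libraries.

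The first comparison asks how mural and cumulus cells differ. Cox7a1, a muscle form of a small complex IV subunit, rose in mural cells, and it was the only member past the test across all genes. Its FPKM was 15.5 and 23.3 in the mural libraries and 4.86, 5.10 and 0.98 in cumulus cells at 2 months. Every mural library lay above every cumulus library, those at 10 months included (4.19, 11.2 and 10.2), and the COC stood at 4.92 (BDF1) and 0 (DBA/2). The means were 19.4 ± 5.52 (SD, n = 2) and 3.65 ± 2.31 (SD, n = 3), and the difference on the log2(FPKM + 1) scale, which understates the change of low genes, was 2.27 ± 0.56 SE (adjusted p = 0.0277, limma with Benjamini-Hochberg adjustment). Its widely made partner Cox7a2 was 108 and 137 in mural and 186, 195 and 155 in cumulus cells, and did not pass (adjusted p = 0.0962, limma). Cox7a1 thus made up 12.6 and 14.5% of the pair's FPKM in mural cells, 0.63 to 2.54% in cumulus cells at 2 months and 2.40 to 6.84% at 10 months, a ratio that scaling of a library does not touch. In bulk samples, a change in the share of cells that make a transcript and a change in its amount per cell cannot be told apart. The call rests on both mural libraries: without mural replicate 1 the difference was 2.55 (adjusted p = 0.0923) and without mural replicate 2 it was 1.99 (0.185), with the lone mural library assumed to vary like the other groups.

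Summed markers of several other cell types were also higher in mural cells than in cumulus cells at 2 months. Of 5 smooth muscle markers, 3 and 4 reached an FPKM of 1 in the mural libraries, against 1, 2 and 4 in the 2-month and 2, 3 and 4 in the 10-month cumulus libraries. They summed to 24.8 and 43.2 FPKM in mural cells. They summed to 4.56 to 8.72 in cumulus cells at 2 months and to 14.8 to 25.2 at 10 months, and Acta2 (14.9 and 25.2) and Tagln (7.39 and 12.7) held most of the mural sums, while Myh11 (1.33 and 2.33 against 0.81, 0.12 and 2.31 at 2 months) and Cnn1 overlapped between the groups. The 6 theca and stroma markers summed to 79.5 and 112 in mural cells, 1.83 to 3.01 in cumulus cells at 2 months and 9.26 to 26.0 at 10 months. Cyp17a1 held most of these mural sums (61.5 and 63.0). Pdgfra overlapped between the groups (0.66 and 1.22 against 0.84, 2.25 and 1.13 at 2 months). The 6 endothelial markers summed to 21.0 and 54.4, against 1.60 to 4.76 and 4.26 to 19.7. The 6 immune markers summed to 15.2 and 33.3, against 1.73 to 5.11 and 15.5 to 40.0, and the 6 erythroid markers to 141 and 82.5, against 13.3 to 21.4 and 21.9 to 136. Alas2, which held most of the erythroid sum in the 2-month cumulus libraries (16.1, 15.96 and 13.3), was lower in the mural ones (2.36 and 1.17), so the higher mural sums are of globin genes. Their part in the Cox7a1 difference was not tested. The 11 skeletal and heart muscle markers summed to 8.46 and 8.03 in mural and 10.95 to 12.3 in cumulus cells at 2 months. Acta1 held most of these sums (7.38 and 6.79 against 10.2, 11.1 and 9.59). Ckm overlapped between the groups (0.41 and 0.31 against 0.33, 0 and 0.26). Myl1 was low but higher in mural cells (0.27 and 0.62 against 0 in the 2-month cumulus libraries), and Myh1 and Myh4 were at 0 in the mural libraries. The part of muscle cells was not tested either. Ucp1, the defining gene of brown fat, which also makes Cox7a1, was listed at 0 in all 10 libraries.

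A second isoform pair, which the symbol rule does not take, went the other way. Cox4i1 and Cox4i2 encode forms of subunit 4 of complex IV, the second known from lung and from cells short of oxygen. Cox4i2 had 168, 126 and 120 FPKM in the 2-month cumulus libraries but 17.0 and 22.8 in the mural ones, with no overlap. It fell in mural cells by 2.74 ± 0.48 SE on the log2 scale (means 19.9 ± 4.09, n = 2, and 138 ± 26.2, n = 3; adjusted p = 0.00983, limma). Cox4i1 stood at 460 and 493 in mural and 588, 499 and 407 in cumulus cells, so its groups overlapped (log2 difference -0.05, adjusted p = 0.9085, limma; its sign changed to 0.42 after quantile normalization and 0.17 after rescaling). Of the pair's FPKM, Cox4i2 held 20.1 to 22.8% in the 2-month cumulus libraries and 3.56 and 4.41% in the mural ones. In cumulus cells at 10 months the share was 20.6, 21.3 and, in replicate 3, 11.3%. That library also had the highest mural marker sum of the 6 cumulus libraries (950). Cyp11a1 held most of this sum (773), and Lhcgr, Star and Cd34 were also highest there. Nppc, the other mural marker, was 16.1 there, below the other cumulus libraries (21.3 to 34.1). The part of mural cells in the Cox4i2 share was not tested. Ndufa4l2, a relative of Ndufa4 known to be induced by low oxygen, was likewise lower in mural cells (3.09 and 4.24 FPKM against 42.4, 29.0 and 35.9; log2 difference -2.97 ± 0.43 SE, adjusted p = 0.00616, limma). Both calls were lost without mural replicate 2 (adjusted p = 0.0792 for Cox4i2 and 0.0636 for Ndufa4l2), and that of Cox4i2 also without mural replicate 1 (0.0672).

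**Figure D2:**
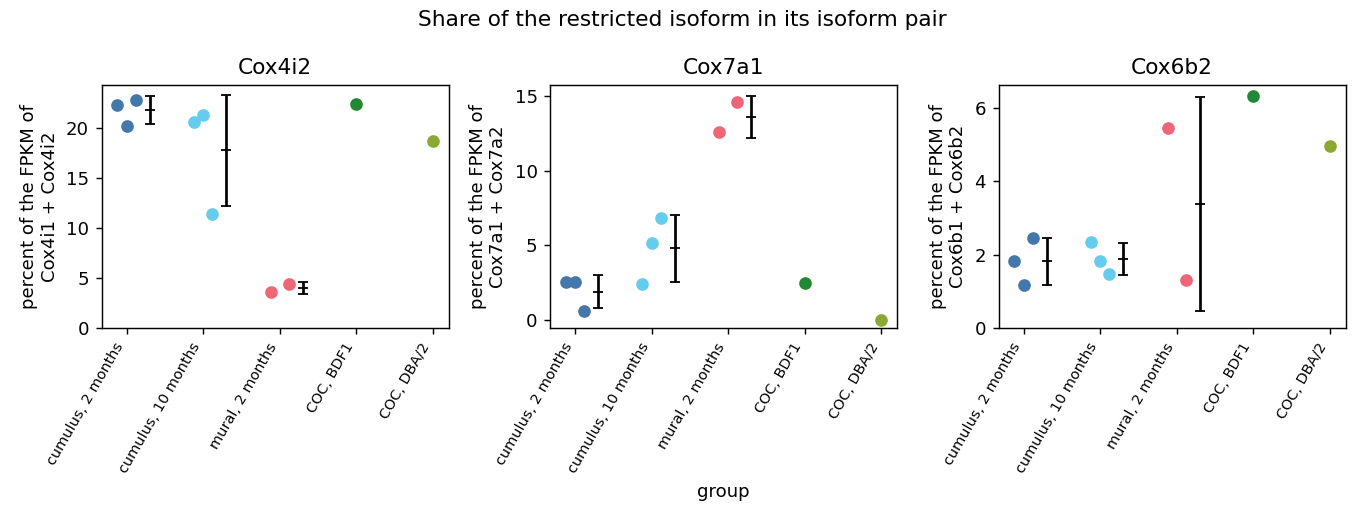
Share of Cox4i2, Cox7a1 and Cox6b2 in the FPKM of their isoform pairs, in percent, for each library (points) by group, with mean and SD beside groups of 2 or 3. The mural libraries are lowest for Cox4i2 (3.56 and 4.41%) and highest for Cox7a1 (12.6 and 14.5%), and the COC stand above all cumulus libraries for Cox6b2.

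None of the other subunits passed. Of 76 members tested, 1 was called higher and 0 lower at an adjusted p of 0.05 (limma), against 20.9% of all 12412 genes (9.69% higher and 11.2% lower). An unadjusted p under 0.05 was reached by 11 members, 1 higher and 10 lower, against 36.8% of all genes. The median log2 difference was -0.24 over the members and -0.08 over all genes. After rescaling each library to the same FPKM sum, it was -0.03 over the members and 0.11 over all genes, and after quantile normalization -0.03 and -0.06. Relative to the median of all genes the members therefore stood at -0.16, -0.14 and 0.03, so whether they lay below it depends on the scaling. As deposited, the -0.16 became -0.079 or -0.30 when mural replicate 1 or 2 was left out, and -0.089 or -0.31 when replicate 1 or 3 of the 2-month cumulus group was left out. For complex I the value was -0.13, and it changed sign without mural replicate 1 (0.0081) and after quantile normalization (0.06). The count also moved with single libraries, as did the share of all genes called. Without a mural library only 1 is left in that group, so no count is given. It was 2 of 76 without cumulus replicate 2 at 10 months, against 22.33% of all genes. Without cumulus replicate 3 at 10 months it was 9 (8 of them lower), against 26.39%. It was 8 (7 of them lower) when the 2-month groups alone were fitted, against 26.67%. Without replicate 3 of both cumulus groups, a choice made after seeing the data, it was 22 (21 of them lower), against 25.39%.

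Most ATP synthase members stood lower in mural cells, though none passed. Its median log2 difference was -0.39, and 10 of 17 members had both mural libraries below all cumulus libraries at 2 months. Over all members 2 lay higher and 28 lower without overlap, against 25.6% and 32.0% of all genes (57.6% in either direction), so both counts are read against a large background. Relative to all genes the median was -0.32 as deposited, -0.29 after rescaling and -0.09 after quantile normalization. Atp5g2 had the smallest p of the complex: it was 309 and 302 FPKM in mural cells and 631, 545 and 447 in cumulus cells (log2 difference -0.81 ± 0.27 SE, adjusted p = 0.0708, limma). Atp5b, the catalytic beta subunit, was 574 and 631 against 972, 940 and 772, and Atp5a1, its alpha partner, 292 and 332 against 438, 431 and 363. None of the 3 overlapped between the groups, and none passed.

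In complex I, 11 of 36 members lay lower and 1 higher in mural cells without overlap, where 32.0% and 25.6% of all genes did, so the count of lower members is near the background. Ndufa12, an accessory subunit of the electron input arm, had 114 and 124 FPKM in mural and 208, 182 and 163 in cumulus cells (log2 difference -0.63 ± 0.22 SE, adjusted p = 0.0812, limma). The member that lay higher was Ndufc2, a membrane arm subunit, at 147 and 185 against 145, 135 and 120 (adjusted p = 0.328, limma). In complex IV, 4 of 11 tested members lay lower without overlap (Cox5a, Cox7a2, Cox7b and Cox8a) and 1 higher (Cox7a1). In complex III 3 of 8 did (Uqcrq, Uqcrh and Uqcrc2), with Uqcrq at 235 and 282 FPKM against 506, 413 and 328 (log2 difference -0.67 ± 0.33 SE, adjusted p = 0.187, limma). No member of complex II separated the groups. Succinate dehydrogenase subunit Sdha stood at 103 and 118 in mural and 119, 113 and 103 in cumulus cells, and the 4 members' log2 differences ranged from -0.32 (Sdhc, adjusted p = 0.191, limma) to -0.01. Without cumulus replicate 3 at 10 months, Atp5g2 (adjusted p = 0.0175, limma), Ndufa12 (0.0271) and Uqcrq (0.0488) passed as lower.

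**Figure D3:**
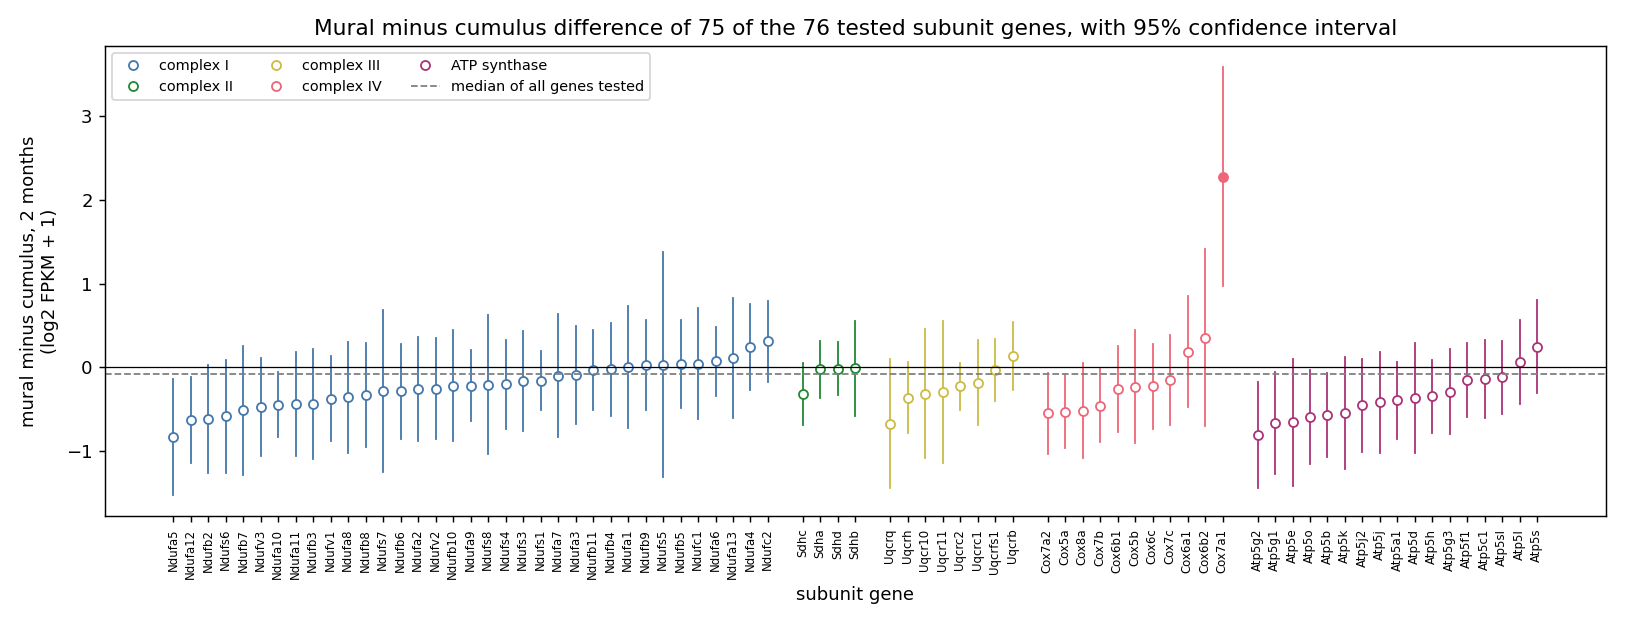
Mural minus cumulus difference at 2 months on the log2(FPKM + 1) scale for 75 of the 76 tested members, by complex, with 95% confidence intervals; the filled point passed an adjusted p of 0.05 and the dashed line is the median of all genes tested (-0.08). Cox7a1 stands at 2.27, the other members shown between -0.83 and 0.36.

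The balance between complexes is a ratio that scaling of a library does not touch, and it was looked at after the values were seen. ATP synthase members made up 35.7 and 35.5% of the members' summed FPKM in the mural libraries (mean 35.6 ± 0.12, SD, n = 2), and 38.9 to 40.0% in the 6 cumulus libraries. Complex I made up 31.5 and 31.4% in mural and 27.8 to 29.2% in cumulus cells, and complex II 2.82 and 2.81% against 2.13 to 2.61%. The shares of complex III (10.4 and 10.3% against 10.4 to 10.8%) lay close together. Complex IV made up 19.6 and 20.05% in mural cells. In cumulus cells it made up 18.8, 18.0 and 18.4% at 2 months and 19.6, 19.2 and 19.8% at 10 months. All mural and 10-month libraries thus lay above all 2-month cumulus libraries for complex IV. The COC lay with the cumulus cells for ATP synthase (39.9 and 39.7%) and complex IV (19.3 and 18.8%), and below them for complex I (27.1 and 27.7%). Like the mural libraries, they lay above all 6 cumulus libraries for complex II (2.74 and 2.98%). For complex III they lay slightly above them (10.87 and 10.88%, against a highest cumulus share of 10.83%). These shares rest mainly on the most abundant members and carry no test.

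**Figure D4:**
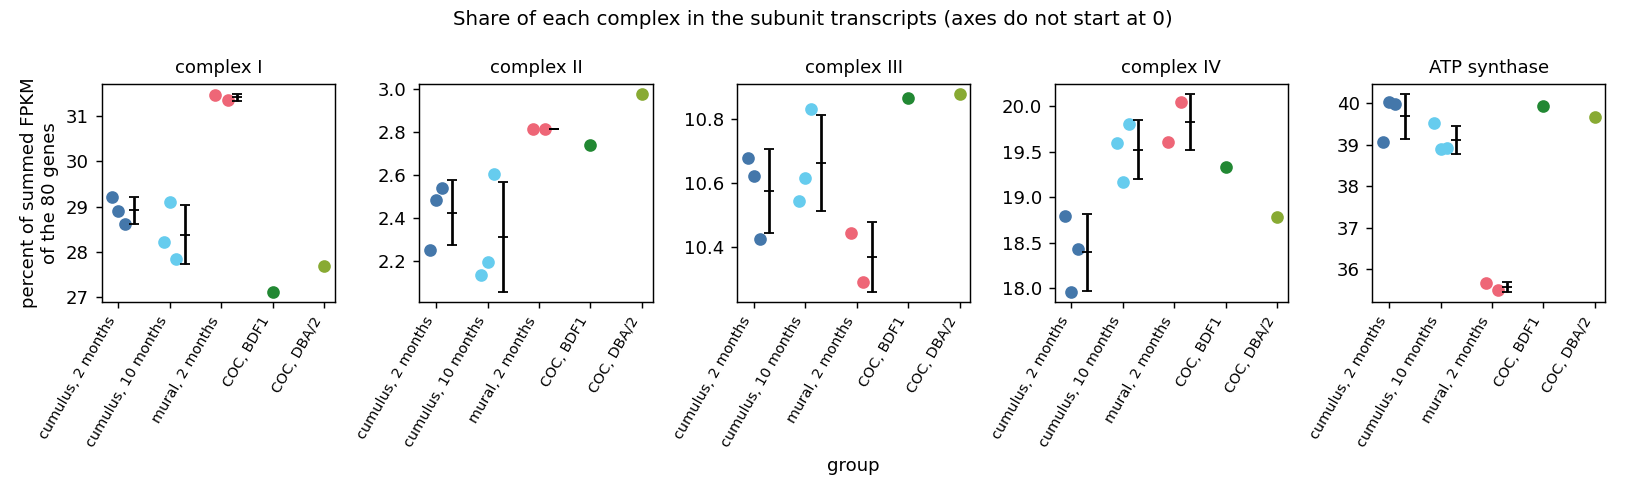
Share of each complex in the summed FPKM of the 80 members, in percent, for each library (points) by group, with mean and SD beside groups of 2 or 3. The mural libraries are lowest for ATP synthase (35.7 and 35.5%) and highest for complex I (31.5 and 31.4%).

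The second comparison, which shares the 2-month cumulus libraries with the first, asks how cumulus cells differ between 10 and 2 months of age. No subunit passed: 0 of 76 members passed and 0 reached an unadjusted p under 0.05 (limma), against 0.0% and 13.9% of all 12412 genes. The median log2 difference was -0.15 over the members and -0.02 over all genes. The members' median changed sign without cumulus replicate 3 at 10 months (0.05), and without cumulus replicate 1 at 2 months it was -0.04. Without replicate 3 of both cumulus groups, a choice made after seeing the data, it was -0.07, against -0.02 over all genes. It was -0.27 without cumulus replicate 2 at 10 months and -0.25 without cumulus replicate 3 at 2 months. The 10-month replicate 3 was the lowest of its group in 70 of 76 members, or 92.1%, while it was the lowest in 39.9% of all genes. At 2 months cumulus replicate 3, the one with the most oocyte RNA, was likewise the lowest of its group in 70 of 76, against 46.5% of all genes. The members' share of a library's FPKM, short Mir and Snor genes left out, showed the same: 3.74, 3.49 and 3.10% in replicates 1, 2 and 3 at 2 months, 3.24, 3.43 and 2.74% at 10 months, and 3.05 and 3.45% in mural cells.

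Single members with the smallest p of their complex at 10 months were Cox7a1, Atp5s, Sdhd, Ndufa12 and Uqcrfs1. Cox7a1 had 4.19, 11.2 and 10.2 FPKM at 10 months and 4.86, 5.10 and 0.98 at 2 months (log2 difference 1.11 ± 0.50 SE, adjusted p = 0.379, limma), so that its groups overlapped through replicate 1. Mural marker sums in the same libraries were 50.1, 315 and 950 at 10 months and 56.6, 50.3 and 35.1 at 2 months. The part of mural cells in this difference was not tested. Sdhd, a membrane anchor of succinate dehydrogenase, was the only member whose age groups did not overlap, at 66.7, 73.8 and 60.3 against 76.7, 84.3 and 75.7 (log2 difference -0.24 ± 0.12 SE, adjusted p = 0.429, limma). Groups did not overlap in 17.8% of all genes, 8.93% higher and 8.88% lower. Ndufa12 had a difference of -0.36 (adjusted p = 0.463), Uqcrfs1 of -0.21 (0.562) and Atp5s of -0.44 (0.4096), all from limma. Cox4i2, at 152, 153 and 48.3 FPKM, did not pass (log2 difference -0.39, adjusted p = 0.737, limma), and without replicate 3 at 10 months its sign changed (0.16). Ndufa4l2, at 66.4, 78.4 and 26.5, did not pass either. The intervals are wide: that of Atp5b, 95% from -0.55 to 0.35, leaves room for a difference of either sign.

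Ndufs5, an accessory subunit of complex I, had the widest spread at 10 months. It stood at 151, 48.9 and 47.3 FPKM in replicates 1, 2 and 3, a coefficient of variation of 72.2%, where the median over the tested members was 23.1%. At 2 months it stood at 35.9, 87.6 and 84.3, in the mural libraries at 53.7 and 80.7, and in both COC at 39.9.

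The COC were set beside the cumulus cells without a test, since strain, age, priming and the oocyte itself differ together and each strain has 1 library. Among 76 tested members, 7 had both COC values above all 6 cumulus values, against 26.1% of all genes, and 8 had both below, against 11.4% (37.4% for either). The mean log2 difference had a median of -0.14 over the members and 0.10 over all genes. Members of 1 complex went both ways. In complex II, the anchors Sdhc (106 FPKM in BDF1 and 104 in DBA/2 COC, against 69.0 to 91.8 in cumulus cells) and Sdhd (108 and 111, against 60.3 to 84.3) stood above, and the catalytic subunit Sdha (78.8 and 79.7, against 88.4 to 119) stood below.

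In ATP synthase, Atp5a1 was 280 and 252 FPKM in COC against 291 to 438 in cumulus cells, Atp5j was 239 and 210 against 239.5 to 460, and Atp5o was 198 and 162 against 220 to 379. Atp5o and Atp5j encode stalk subunits, and Atp5h, another stalk subunit, stood above (352 and 357 against 252 to 349). In complex IV, Cox5a, next to the catalytic core, was higher (226 and 185 against 120 to 176), and Cox8a (288 and 236 against 324 to 509) and Cox7b (55.1 and 59.3 against 65.9 to 101.5) were lower. In complex I, the accessory Ndufa2 was 100.8 and 92.7 against 116 to 209. In complex III, the core protein Uqcrc2 was 125 and 121 against 86.9 to 105, and Uqcrb was 120 and 139 against 149 to 208.

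Cox6b2, the testis form of a complex IV subunit, had the largest excess in COC of any tested member. It was 25.3 and 15.8 FPKM in BDF1 and DBA/2 COC and 4.004 to 7.84 in the 6 cumulus libraries, a mean log2 difference of 1.59. Its share of the Cox6b1 and Cox6b2 FPKM was 6.34 and 4.96% in COC and 1.16 to 2.46% in cumulus cells. Among 5 male germ cell markers 1 and 2 reached an FPKM of 1 in the COC, with Ldhc at 4.33 and 4.42 and Tnp1 and Pgk2 at 0. The 11 oocyte markers, all above an FPKM of 1 in the COC, summed to 3358 and 3198 there and to 4.43 to 1205 in cumulus cells. In mural replicate 1 Cox6b2 was 13.5 and in replicate 2 it was 4.36, with oocyte marker sums of 158 and 21.8. In cumulus replicates 1, 2 and 3 at 2 months Cox6b2 was 6.83, 4.03 and 7.35, with oocyte marker sums of 232, 4.43 and 1205. At 10 months it was 7.84, 7.17 and 4.004, with oocyte marker sums of 306, 171 and 376. Their part in the Cox6b2 level was not tested.

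**Figure D5:**
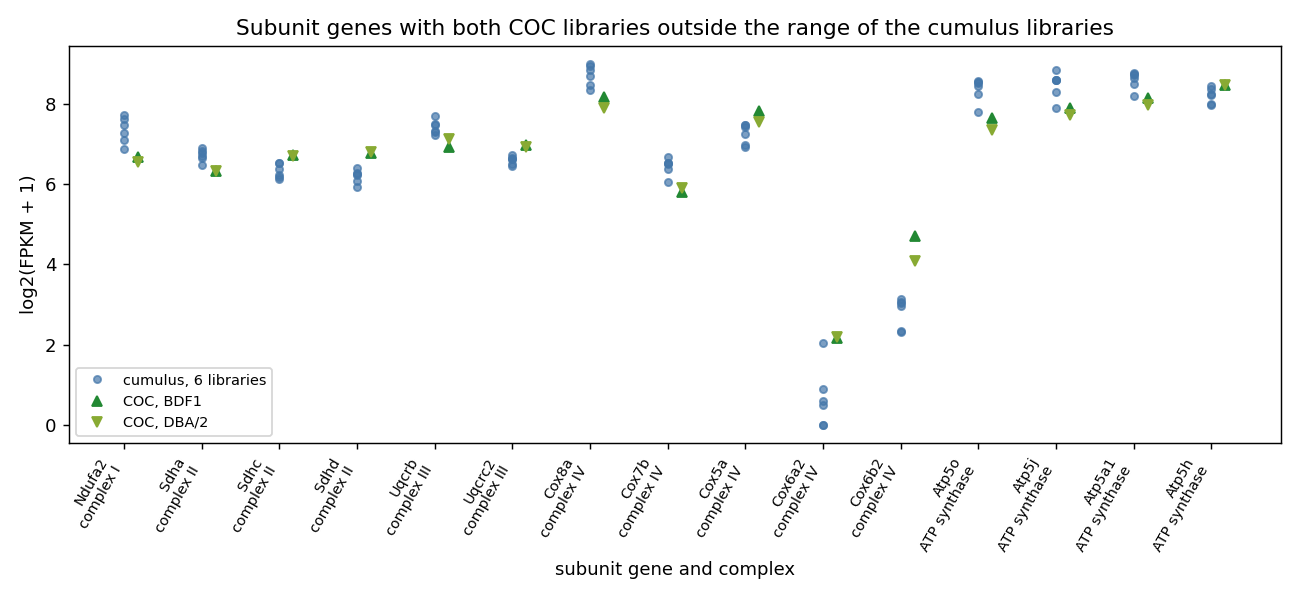
Level, as log2(FPKM + 1), of members whose 2 COC values (triangles) both lie above or both lie below the 6 cumulus libraries (circles), by complex. Cox6b2 (25.3 and 15.8 FPKM) is furthest above, and Atp5o (198 and 162 FPKM) is among those below.

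Other genes of the pathway were counted by lists. Over all genes tested, 11.2% were called lower and 9.69% higher in mural cells, 20.9% in either direction, and the counts are to be read against these shares. Of 9 subunits outside the symbol rule, 2 fell in mural cells (Cox4i2 and Ndufa4l2) and 7, including the complex III subunit Cyc1 (135 and 152 FPKM against 220, 179 and 139), did not pass. None of the 5 tested electron carriers passed, among them cytochrome c (Cycs, 41.9 and 49.7 against 65.0, 65.4 and 61.2). Of 30 tested assembly factors 1 fell, Bcs1l, which inserts the Rieske protein into complex III (6.08 and 5.81 against 11.8, 9.05 and 9.31; log2 difference -0.66 ± 0.20 SE, adjusted p = 0.04999, limma). Of 10 tested regulators of respiratory genes, 3 fell and 0 rose. Pprc1, a coactivator of the PGC-1 family, was 10.4 and 8.21 FPKM in mural and 22.4, 22.1 and 25.5 in cumulus cells (log2 difference -1.25 ± 0.17 SE, adjusted p = 0.00593, limma). Gabpb1, a subunit of the factor GABP, was 12.7 and 12.8 against 21.7, 22.6 and 23.6 (log2 difference -0.79 ± 0.16 SE, adjusted p = 0.0163, limma). Nrf1 was 10.1 and 9.08 against 14.3, 13.5 and 18.4 (log2 difference -0.62 ± 0.18 SE, adjusted p = 0.0471, limma). None of the 3 overlapped between the groups.

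Without mural replicate 1 the calls of Gabpb1 (adjusted p = 0.0924), Nrf1 (0.147) and Bcs1l (0.176) were lost, and without mural replicate 2 those of Pprc1 (0.0697), Gabpb1 (0.116), Nrf1 (0.243) and Bcs1l (0.2285). Leaving out any 1 of the 3 cumulus libraries at 2 months also ended the calls of Nrf1 (adjusted p = 0.0818, 0.0728 and 0.0996 without replicates 1, 2 and 3) and Bcs1l (0.123, 0.0884 and 0.0757), and leaving out replicate 2 that of Gabpb1 (0.0551). Of the 10-month libraries, replicate 2 decided Nrf1 (0.0581 without it) and replicate 1 Bcs1l (0.0699 without it). Nrf1 was not called under 12 of 16 alternatives, Bcs1l under 10 and Gabpb1 under 4. Rescaling ended the calls of all 3 (adjusted p = 0.175, 0.0794 and 0.0516), while Pprc1 stayed past the threshold under 15. Ppargc1a, the founding member of the PGC-1 family, was at 0.26 FPKM or less in all 10 libraries. In cumulus cells at 10 months, 0 genes of these lists passed. Of 30 tested assembly factors, 2 reached an unadjusted p under 0.05, against 13.9% of all genes. These were Cox18 and Tmem70, named after their values were seen (adjusted p = 0.3495 and 0.354, limma).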

How the data were processed

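The authors deposited 1 table of FPKM for 10 libraries. The submitters' processing notes name TopHat2 (2.1.0), Cufflinks (2.1.0) and mm9. No source used here gives annotation, strandedness or depth. FPKM from Cufflinks are likelihood estimates, so no counting interval is given, and short genes or genes with near-identical copies, as many subunit genes have, are less certain. One repeated header line was dropped, and 0 symbols were repeated.

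Values were set to log2(FPKM + 1). The 12412 genes averaging an FPKM of 1 or more in the 8 C57BL/6 libraries entered 1 model with a term per group in limma 3.58.1 (R 4.3.3) with an intensity trend, fitted over all genes with two-sided Benjamini-Hochberg adjustment and a threshold of 0.05. The model was tested on simulated data of 12412 genes, 12212 of them unchanged. Of 100 altered genes each, it recovered 31% (log2 change 1) and 73% (log2 change 2) for mural against cumulus cells. For age it recovered 47% and 89%. It called 4 unchanged genes in the first case and 7 in the second. In the data 20.9% of genes passed between mural and cumulus cells, so these shares are not the power of that test. The COC, with 1 library per strain, were not tested. Alternatives changed the pseudocount, filter, scaling, groups fitted, replicate block and libraries used. Named genes were isoforms, catalytic subunits, the highest and lowest member, the smallest p and the largest COC difference of each complex. Members and lists were chosen with earlier results of these data known, and the pathway genes named with a fold change, the motifs and the promoters shown were chosen after their values were seen. Of 80 symbols, 77 matched RefSeq symbols and all 80 with synonyms. Promoters of 68 matched, and those of the other 12, among them Atp5a1, Cox6a2, Cox6c, Cox8c, Ndufa2, Ndufb9, Ndufs1, Sdhc, Uqcrb, Uqcrc2 and Uqcrq, are not used here. One complex I member is counted but its values are not reported here.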

Additional observations from a re-analysis of the deposited data

How the results depend on the processing

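The count of members called between mural and cumulus cells was 1 as reported and under the other pseudocount and both filters. In these settings 14.43 to 23.31% of all genes were called. It was 2 of 76 after quantile normalization (20.19% of all genes) and 2 after rescaling to the same sum (21.52%). It was 8 when only these groups were fitted (26.67%). Leaving out 1 cumulus library gave 1 to 9 (9.66 to 26.39% of all genes). Without replicate 3 of both cumulus groups, an alternative chosen after seeing the data, it was 22, of which 21 were lower (25.39% of all genes). With the replicate number as a block it was 27, of which 26 were lower (27.08% of all genes). The numbers are not shown to pair the libraries: deviations of same-numbered cumulus libraries of both ages correlated at 0.01, 0.12 and 0.15, those of mural and 2-month cumulus libraries at 0.03 and 0.21, and not every library correlated best with its own number. For age the count was 0 under all 16 alternatives, the block included. Of 20 named gene results, 17 kept their direction under all 16 alternatives. The other 3, none of which passed in any, did not. Cox4i1 in mural cells (-0.05) turned to 0.42 after quantile normalization, 0.17 after rescaling, and, without single libraries, ranged from -0.185 to 0.079. Cox4i1 at 10 months (0.02) ranged from -0.11 to 0.23 without single libraries. Cox4i2 at 10 months (-0.39) ranged from -0.67 to 0.16 without single libraries and was 0.067 without replicate 3 of both cumulus groups. The causes were not tested. Depth is unknown, so how far counting noise limits low isoforms such as Cox6b2 and Cox7a1 cannot be stated.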
